A study of Mus musculus with 6 samples.

Results

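Serpins are a superfamily of proteins with a common fold, most of which inhibit serine proteases: the target protease cuts an exposed loop of the serpin, the serpin changes shape, and the protease is trapped in a covalent complex. The liver secretes many of them into plasma, where they restrain clotting, fibrinolysis, complement and the proteases of neutrophils, and some members have lost the inhibitory function and carry hormones or fold collagen instead. Family members are named by clade letter, with the mostly secreted clade A and the mostly intracellular clade B as the largest in the mouse.

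The family was taken as every gene whose symbol in the annotation of the array platform starts with Serpin, which gave 56 genes of 19057 with a symbol, read by 81 probes. The cells were primary hepatocytes, taken from male mice of the C57Bl/6J strain, and their RNA was read on 6 single-colour Illumina arrays, 2 in each of 3 groups. One group was untreated, and the others had received murine tumour necrosis factor alpha (TNFα), an inflammatory cytokine, at 2 ng/mL, either for 2 hours or for 2 days. The untreated cells shared all else with them: collagen-coated plates and Williams' E medium to which dexamethasone (50 nM, a synthetic glucocorticoid), insulin (1 nM) and 5% fetal calf serum were added. Nothing in the labels tells if both replicates of a group are different mice or cultures, and the p-values therefore cover only array-to-array spread, which may be technical. They also give no time in culture for the untreated cells, so a 2 day exposure and the time in culture cannot be told apart.

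A gene was tested when a probe of it exceeded the array's median intensity on at least 2 arrays, and it was then read from its brightest such probe. Of the 56 genes 37 passed: 15 of 21 in clade A, 15 of 26 in clade B, both genes of clade F, and the single genes of clades C, D, E, G and H. The 19 that did not pass, among them both genes of clade I (Serpini1, neuroserpin, and Serpini2), lay between 111.4 and 164.9 intensity units on every array and probe, against array medians of about 143.2. Intensities of different probes are not comparable as levels, and the deposited values hold their background, so changes of dim probes are understated. A gene was called when its adjusted p (limma, Benjamini-Hochberg over 13438 genes) was under 0.05. Replicate arrays correlated at 0.995 to 0.996 over the tested genes.

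The labelled cell type could be read from its markers. Of 8 hepatocyte markers 7 were tested and Tat did not pass. The sum of the 7 was 95315 to 99965 intensity units in untreated, 96720 to 96953 in 2 hour and 53695 to 57048 in 2 day arrays; 5 of these 7 were called lower at 2 days, among them the urea cycle enzyme Cps1 (log2 change -3.10). The albumin probe was near the array median in all groups, with means of 159.8, 153.8 and 145.1 units, and so gives no reading of albumin. Of the macrophage markers 8 of 10 were tested and 4 were called higher at 2 days. These were all complement C1q chains or Cd163 with group means under 300 units. Marco (0.30), Csf1r (0.08), Adgre1 (-0.04) and Lyz2 (-0.09, with 0.11 and 0.16 on its other probes) were not called. The summed level of the 8 went from 1300 to 1339 in untreated to 1543 to 1680 in 2 day arrays. The 3 tested bile duct markers summed to 1192 to 1208, 1808 to 1828 and 3180 to 3424 in the 3 groups, which was mostly Sox9. The 5 tested stellate cell markers summed to 2150 to 2625 in untreated and 2798 to 3553 in 2 day arrays. Of these Acta2 was called higher (0.67), with 0.13, 0.17 and 0.42 on its other probes, only the last of them called. Reln was called lower (-0.82, with 0.14 on its other probe), and the other 3 were not called. The rise of the sum lay mostly in Acta2, with means of 1577.9 untreated and 2506.6 units at 2 days. The 8 endothelial markers summed to 1480 to 1598 in untreated and 1527 to 1544 in 2 day arrays. Among them Oit3 was called higher at 2 days (0.43, with -0.10 on its other probe) and Stab2 lower (-0.37). The macrophage and endothelial probes lay mostly near the array median, so their sums say little about these cells. Of 10 lymphocyte and neutrophil markers 1 passed. After a background correction (normexp) the 2 day calls of C1qc, Cd163, Acta2, Oit3 and Stab2 were lost. The part of these shifts in the serpin results below was not tested, and in RNA from whole cultures fewer cells of a type and less RNA per cell cannot be told apart.

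Shown are the stretches before the gene starts for Serpina12, Serpina5, Serpina7 and Serpind1, all called higher at 2 days. The stretches of Serpina3n and Serpinf2, 2 of the strongest falls, are also shown. Each is the 250 bases before the annotated start (for Serpina7 the first of its 2 listed starts), 5′ to 3′ on the strand of the gene, from RefSeq on GRCm38.p6: chr12:104044444-104044693 on the minus strand for Serpina12, chr12:104100863-104101112 on the plus strand for Serpina5, chrX:139085237-139085486 on the minus strand for Serpina7, chr16:17331121-17331370 on the plus strand for Serpind1, chr12:104406458-104406707 on the plus strand for Serpina3n and chr11:75439502-75439751 on the minus strand for Serpinf2. Capitals mark a match to TTNNGCAA, a short form of the site read by C/EBP factors, to TTCNNNGAA, the form read by STAT factors, or to the NF-κB consensus, on either strand.
Serpina12: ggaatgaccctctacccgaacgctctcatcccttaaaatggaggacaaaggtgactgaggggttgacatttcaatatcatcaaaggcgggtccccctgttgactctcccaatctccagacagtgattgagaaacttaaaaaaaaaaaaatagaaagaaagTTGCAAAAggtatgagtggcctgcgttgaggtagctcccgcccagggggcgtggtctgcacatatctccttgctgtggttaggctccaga
Serpina5: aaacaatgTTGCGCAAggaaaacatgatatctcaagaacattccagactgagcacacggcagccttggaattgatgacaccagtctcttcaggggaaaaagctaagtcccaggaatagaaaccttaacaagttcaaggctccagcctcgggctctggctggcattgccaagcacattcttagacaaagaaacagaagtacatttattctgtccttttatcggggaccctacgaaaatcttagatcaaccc
Serpina7: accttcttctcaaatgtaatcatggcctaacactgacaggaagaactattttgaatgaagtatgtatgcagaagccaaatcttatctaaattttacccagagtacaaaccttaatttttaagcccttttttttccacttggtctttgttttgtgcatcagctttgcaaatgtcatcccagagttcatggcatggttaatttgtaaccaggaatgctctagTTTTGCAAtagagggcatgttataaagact
Serpind1: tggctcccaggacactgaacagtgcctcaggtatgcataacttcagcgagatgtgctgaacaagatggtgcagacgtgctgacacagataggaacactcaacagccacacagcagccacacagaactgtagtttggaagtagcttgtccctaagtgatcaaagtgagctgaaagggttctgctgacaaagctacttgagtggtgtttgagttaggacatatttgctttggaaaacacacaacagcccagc
Serpina3n: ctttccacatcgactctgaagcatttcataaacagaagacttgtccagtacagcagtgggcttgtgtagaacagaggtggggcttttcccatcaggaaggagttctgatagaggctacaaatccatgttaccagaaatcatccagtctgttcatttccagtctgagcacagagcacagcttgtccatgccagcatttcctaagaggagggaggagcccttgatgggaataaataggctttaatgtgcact
Serpinf2: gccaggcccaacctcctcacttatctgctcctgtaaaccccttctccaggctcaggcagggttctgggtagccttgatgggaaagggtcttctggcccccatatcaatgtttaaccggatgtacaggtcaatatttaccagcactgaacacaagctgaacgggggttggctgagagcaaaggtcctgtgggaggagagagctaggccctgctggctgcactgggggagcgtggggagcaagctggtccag

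In these 6 windows all capitals are TTNNGCAA: 1 site each before Serpina12, Serpina5 and Serpina7, at positions -90 to -83, -242 to -235 and -30 to -23 from the start, and 0 before Serpind1, Serpina3n and Serpinf2. The site of Serpina5 reads TTGCGCAA, which is its own reverse complement and so matches on both strands. Of the called serpins not shown, Serpina1f holds TTNNGCAA and TTCNNNGAA. Serpinb6a holds TTCNNNGAA before 1 of its 2 listed starts, Serpinf1 has no match, and Serpina10 had no window. Of 32851 windows of this length in the table, 9.56% hold TTNNGCAA, 7.02% hold TTCNNNGAA and 3.9% hold the NF-κB consensus. Among the 49 family members with a window, 12 hold TTNNGCAA (9 of the 33 tested ones) and 7 hold TTCNNNGAA. The NF-κB consensus is held by 2, Serpinh1 and Serpina3i. These counts are by gene, with a match in any of a gene's windows. The shares of single windows above are therefore not a like base. The 12 include Serpina1b, Serpina1d and Serpina1e, which are near-identical copies of each other. A match describes letters and is not evidence of binding.

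The first comparison asked what TNFα had done after 2 hours. No serpin was called: 0 of 37 by limma, where 2.82% of all tested genes were (1.76% higher and 1.06% lower), and 3 of 37 had an unadjusted p under 0.05 against 11.8% of all genes. Log2 changes ran from -0.20 to 0.30, with a median of -0.03 against -0.01 over all genes. The 3 were Serpina3n, the mouse counterpart of the acute phase protein antichymotrypsin, at 0.30 (95% interval 0.07 to 0.53, adjusted p = 0.202 by limma), Serpina12, or vaspin, a secreted serpin known from fat tissue, at 0.28 (0.05 to 0.51), and Serpina1f, an alpha-1-antitrypsin relative, at 0.26 (0.04 to 0.48). In each of the 3 genes both 2 hour arrays lay beyond both untreated ones, without overlap, as they did for 13 of the 37 members, or 35.1%, against 40.4% of all genes. The 2 hour arrays were higher in 7 of these and lower in 6, where 18% and 22.4% of all genes were.

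**Figure D1:**
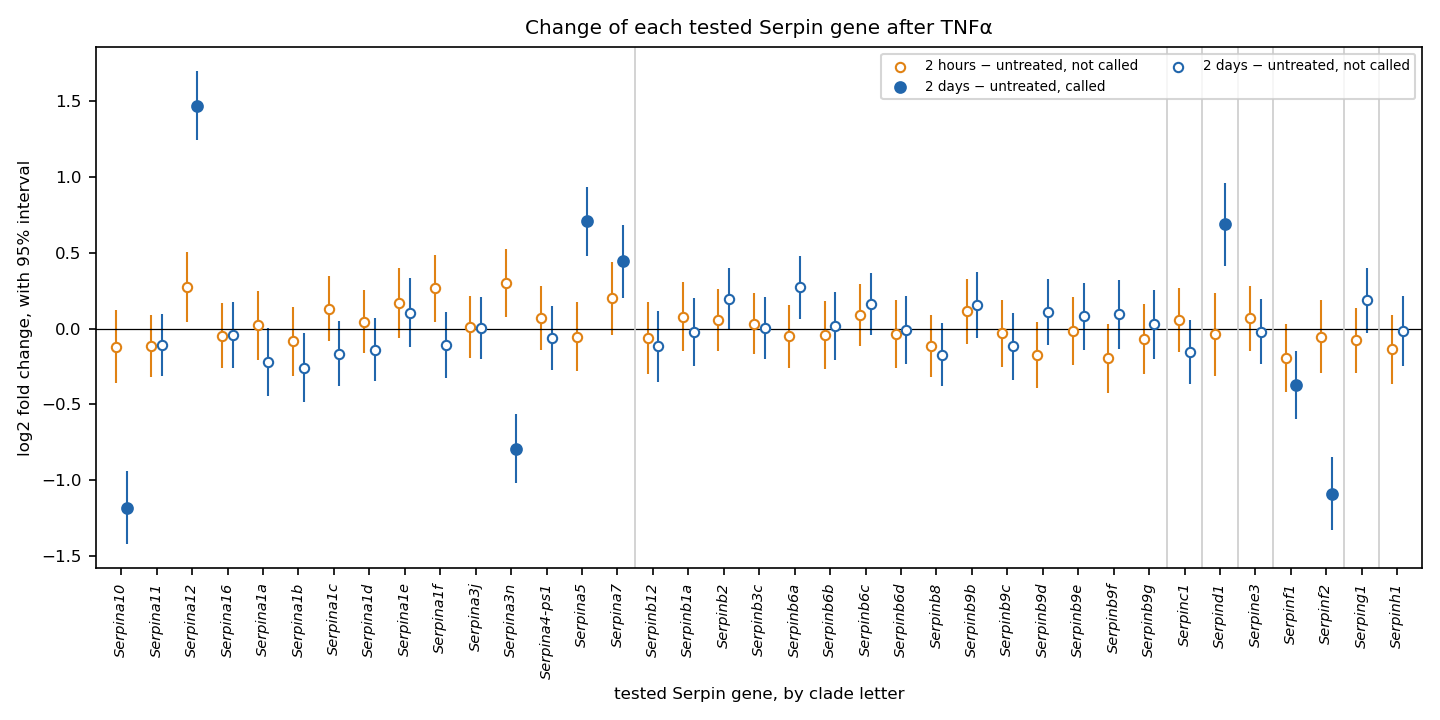
Log2 fold change of each of the 37 tested Serpin genes (x axis, by clade letter, clades separated by grey lines) at 2 hours (orange) and 2 days (blue) against untreated cells, with 95% intervals from limma; filled circles were called. All 37 values at 2 hours are open and lie between -0.20 and 0.30, and the 8 filled circles at 2 days lie in clades A, D and F.

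After 2 days 8 of the 37 were called, 4 higher and 4 lower. That is 21.6%, where 12.7% of all genes were called, 6.74% higher and 5.92% lower. This comparison and the first share the 2 untreated arrays. An unadjusted p under 0.05 was reached by 10 members, against 22.8% of all genes. All 8 were among the 19 members with a mean intensity of at least 200 units, a bound chosen after the values were seen: 8 of 19 is 42.1%, against 22.2% of all genes that bright, and of the 18 dimmer members 0 were called (limma; 0 also at an unadjusted p under 0.05), with changes from -0.17 to 0.20 and 2.2% called among all dimmer genes. The ends of the dimmer members' range, Serpinb8 (-0.17) and Serpinb2 (0.20), passed the filter only through the untreated and the 2 day arrays, respectively. The median over the 37 was -0.02 against 0.01 over all genes, and the calls went both ways. Higher were Serpina12, Serpina5, Serpina7 and Serpind1; lower were Serpina10, Serpinf2, Serpina3n and Serpinf1. Arrays did not overlap for 21 of 37 (56.8%), against 49.6% of all genes, 10 of them higher and 11 lower (26.1% and 23.5% of all genes).

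**Figure D2:**
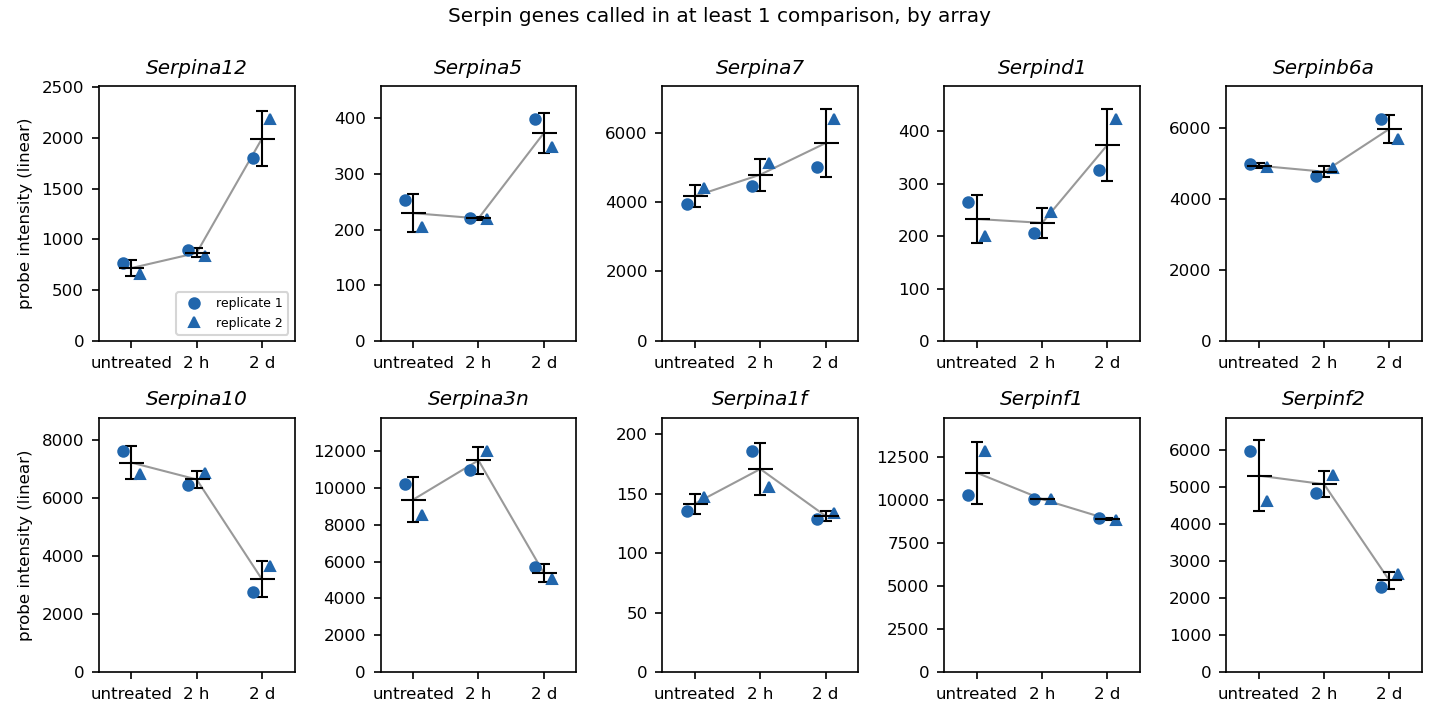
Probe intensity on a linear scale from 0 (y axis) in untreated, 2 hour and 2 day arrays (x axis) for the 10 Serpin genes called in at least 1 comparison; circles are replicate 1, triangles replicate 2, horizontal dashes the means and bars ± SD (n = 2). Serpina12 reaches 1798 and 2182 at 2 days from 662.2 and 771.9 untreated, while for Serpina10, Serpina3n and Serpinf2 both 2 day arrays lie below all 4 others.

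Clade A, with 15 of the 37 tested genes, held 5 of the 8 calls, where 12.7% of all genes were called. Serpina12 had the largest change of the family. Its untreated arrays read 771.9 and 662.2, the 2 hour arrays 897.2 and 834.3 and the 2 day arrays 1798 and 2182. All treated arrays were above both untreated ones, and the 2 day pair stood far above the rest. The rise from 717 ± 77.6 to 1990.1 ± 271 (SD, n = 2 each) was 2.77-fold (log2 1.47, SE 0.11, adjusted p = 3.36e-10 by limma), or 3.03-fold after a background correction (normexp). A second, dim probe of the gene, at 140.1 to 166.8 units on all arrays, gave 0.18 and was not called, and the mean of both probes gave 0.83, which was called.

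Serpina5, the protein C inhibitor, known in the mouse mainly from the reproductive tract, was dim in untreated cells at 253.8 and 205.2, stayed at 221.6 and 218.5 at 2 hours and reached 398.2 and 348.3 at 2 days. The 2 day arrays lay above all 4 others. The change was 1.63-fold (log2 0.71, SE 0.11, adjusted p = 4.48e-05 by limma), or 2.06-fold after normexp. Serpina7, thyroxine-binding globulin, a hormone carrier without protease inhibition, went from 3941 and 4394 through 4464 and 5111 to 5010 and 6382. The 2 hour and 2 day arrays overlapped each other but were all above the untreated pair. Its call at 2 days (log2 0.44, SE 0.12, adjusted p = 0.0102 by limma) was lost without untreated replicate 1 (0.36), without 2 day replicate 2 (0.27), after normexp (0.45) and with the mean of its probes (0.23), and its other probe gave 0.03.

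Serpina10, the protein Z-dependent protease inhibitor, which blocks activated coagulation factor X, had the largest fall among the probes kept for each gene. The 2 other probes of Serpinf2 fell further (-1.29 and -1.36). Serpina10 read 7617 and 6805 in untreated, 6428 and 6836 in 2 hour and 2766 and 3641 in 2 day arrays. The 2 hour arrays overlapped the untreated ones, and the 2 day arrays were below every other array. The mean was 7210.9 ± 574 in untreated and 3203.7 ± 619 in 2 day arrays (SD, n = 2 each). On the log2 scale the fitted change was -1.18 (SE 0.12; adjusted p = 3.34e-08 by limma), which is 2.27-fold lower.

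Serpina3n had the most marked turn over time. Untreated arrays read 10199 and 8501, 2 hour arrays 10960 and 11995 and 2 day arrays 5731 and 5038. It was highest at 2 hours, where the rise was not called, and lowest at 2 days, with no overlap between any of the 3 groups. The 2 day change was -0.79 (SE 0.11, adjusted p = 7.93e-06 by limma), or 1.73-fold lower. Its only other tested clade neighbour of the Serpina3 type, Serpina3j, stayed between 153.4 and 163.5 units, and Serpina3a, Serpina3b, Serpina3f and Serpina3i did not pass. Serpina3 genes are recent copies of each other, so a probe may read more than its named gene, which was not checked here.

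The alpha-1-antitrypsin genes Serpina1a to Serpina1e, which encode the main plasma inhibitor of neutrophil elastase, were not called at 2 days. Serpina1b read 36015 and 32306, then 28974 and 35822, then 29226 and 27862, a change of -0.26 at 2 days (95% interval -0.48 to -0.03, adjusted p = 0.148 by limma); its 2 day arrays were below the untreated ones but overlapped the 2 hour ones. Serpina1d read 31278 and 29226, then 30288 and 32089, then 28211 and 26749, with a difference of -0.14 at 2 days (-0.35 to 0.07). Serpina1c read 20246 and 17747, then 20018 and 21487, then 17615 and 16188, which is -0.17 (-0.38 to 0.05). For both genes the 2 day pair was the lowest of the 3. Serpina1e read 25744 and 20339, then 24645 and 26846, then 24645 and 24554, with the 2 day arrays inside the untreated range (0.10, -0.12 to 0.33). Serpina1a read 2310 and 1929, then 2241 and 2048, then 1702 and 1929, with the lower untreated and the higher 2 day array both at 1929 (-0.22, -0.45 to 0.01). The second probe of Serpina1a was called lower (-0.47, adjusted p = 0.0204 by limma over 21425 probes). The 5 genes are near-identical copies, so a probe may read several of them, and the value of each single copy is uncertain. The sixth, Serpina1f, read 136 and 147.8, then 186.3 and 155.7, then 128.6 and 134.3, and was above its untreated pair at 2 hours and below it at 2 days, all close to the array median.

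The probes of the remaining clade A members were dim, at or near the array median, and so give little reading of these genes. Serpina11 was at -0.11, Serpina16 at -0.04 and Serpina4-ps1, annotated as a pseudogene, at -0.06, none called. Serpina6, corticosteroid-binding globulin, the carrier of the glucocorticoids, read 123 to 143 units on all arrays and did not pass, nor did Serpina9.

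Most of clade A lies in 1 cluster on chromosome 12. Of the 20 cluster genes with a probe 14 were tested, and 2 were called higher, 2 lower and 10 not at 2 days. Over all genes 6.74% were called higher and 5.92% lower. Serpina10 stands at one end and Serpina3n at the other, and both fell, while the risers Serpina12 and Serpina5 are separated by only Serpina4-ps1 among the family's genes. Neighbours did not share a direction along the cluster as a whole, and the Serpina1 genes between Serpina10 and Serpina12 were not called.

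**Figure D3:**
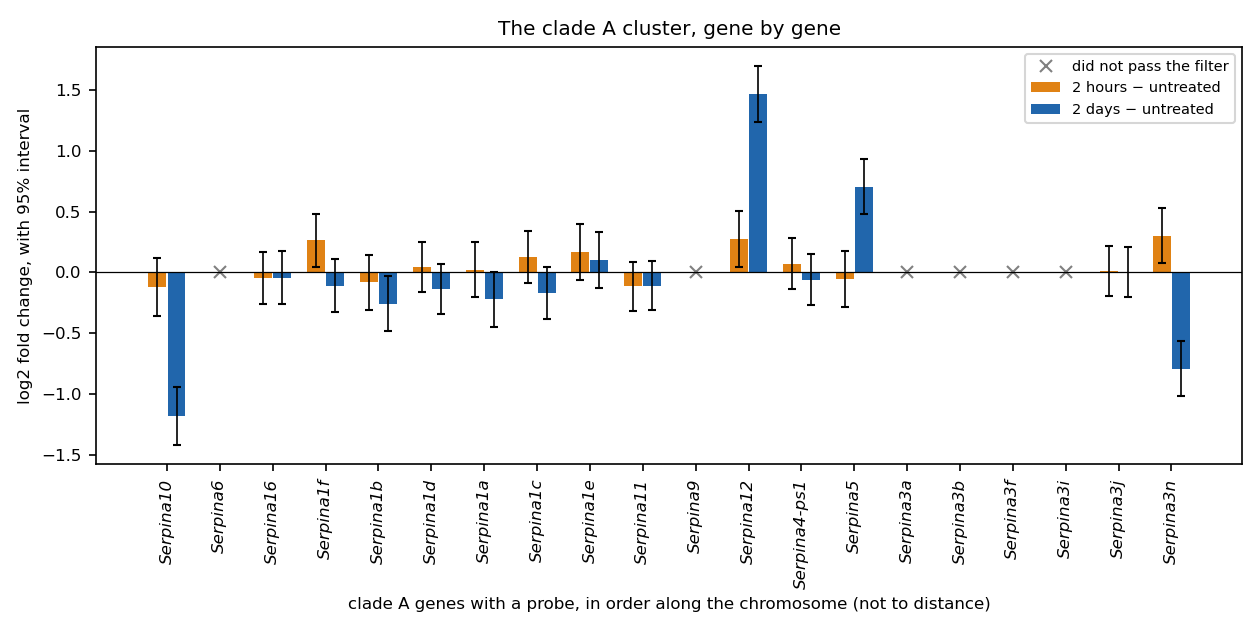
Log2 fold change at 2 hours (orange) and 2 days (blue) against untreated cells (y axis, bars from 0, with 95% intervals from limma) for the 20 clade A genes of the chromosome 12 cluster that have a probe, in their order along the chromosome and not to distance; crosses mark genes that did not pass. The called 2 day changes are Serpina10 (-1.18) and Serpina3n (-0.79) at the ends and Serpina12 (1.47) and Serpina5 (0.71) between them.

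Clade B serpins act mostly inside cells, for instance against granzymes and lysosomal proteases. Of the 15 tested 0 were called at 2 days by limma, against 12.7% of all genes, and log2 differences ran from -0.17 to 0.27. Most of the 15 had mean intensities under 200 units, where only 2.2% of all genes were called. An unadjusted p under 0.05 was reached by 1, against 22.8% of all genes. That 1 was Serpinb6a, an inhibitor of cathepsin G, which read 4989 and 4894, then 4661 and 4882, then 6251 and 5704. Its 2 day arrays were above the 4 others, by 0.27 over untreated (adjusted p = 0.0782 by limma). Serpinb9f and Serpinb9g, of the granzyme inhibitor group, were at 0.09 and 0.03, with arrays from 431.9 to 604.8 and from 496.5 to 623.6. Serpinb9 itself, with 114.6 to 134.9 units, did not pass. Serpinb2, plasminogen activator inhibitor 2, passed only through the 2 day arrays (144.3 and 148.1, against 123.2 and 132.1 untreated), a change of 0.20 that was not called. Serpinb8, the lowest of the clade at -0.17, passed only through the untreated arrays (151.4 and 146.9, against 137 and 127.9 at 2 days).

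Among the coagulation and fibrinolysis inhibitors outside clade A, Serpinf2 fell and Serpind1 rose. Serpinf2, alpha-2-antiplasmin, the main inhibitor of plasmin, read 5979 and 4637 in untreated, 4827 and 5325 in 2 hour and 2317 and 2649 in 2 day arrays. The 2 hour arrays lay within the untreated range, and the 2 day arrays were well below it. The log2 change at 2 days was -1.09 (SE 0.12, adjusted p = 1.39e-07 by limma), or 2.13-fold lower, and its 2 other probes gave -1.29 and -1.36, both called. Serpind1, heparin cofactor II, an inhibitor of thrombin, was dim at 265.6 and 199.8, then 205.4 and 245.2, then 325.3 and 423. Its 2 day pair was above every other array. The rise was 1.61-fold (log2 0.69, SE 0.13, adjusted p = 5.07e-04 by limma). After normexp it was 2.03-fold and not called.

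Serpinc1, antithrombin, the main plasma inhibitor of thrombin and factor X, was read by 2 dim probes. The brighter gave 180.1 and 192 in untreated and 155.9 and 178.8 in 2 day arrays, a change of -0.16 that was not called. The other gave 194.3 and 188.3, then 168.2 and 182.3, then 134 and 135.6. On it the 2 day arrays were lowest, and the change of -0.50 was called (adjusted p = 8.44e-04 by limma over 21425 probes). The 2 probes thus disagree on the call.

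Serpinf1, pigment epithelium-derived factor, a secreted serpin that does not inhibit proteases, read 10295 and 12860, then 10050 on both 2 hour arrays, then 8940 and 8856. Its groups did not overlap and the untreated pair was widely spread. The change at 2 days (-0.37, SE 0.11, adjusted p = 0.0222 by limma) lost its call without untreated replicate 2 (-0.21), without either 2 day array (-0.38 and -0.36), after normexp (-0.37) and with the mean of its probes (-0.24). Serping1, the C1 inhibitor of complement and contact activation, read 7720 and 6827, then 6836 and 6917, then 8743 and 7802, a change of 0.19 (95% interval -0.03 to 0.40) that was not called, with 0.16 on its other probe. Serpinh1, the collagen chaperone of the endoplasmic reticulum, was at -0.02 (arrays 306 to 393.7), and Serpine3 at -0.02, neither called.

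**Figure D4:**
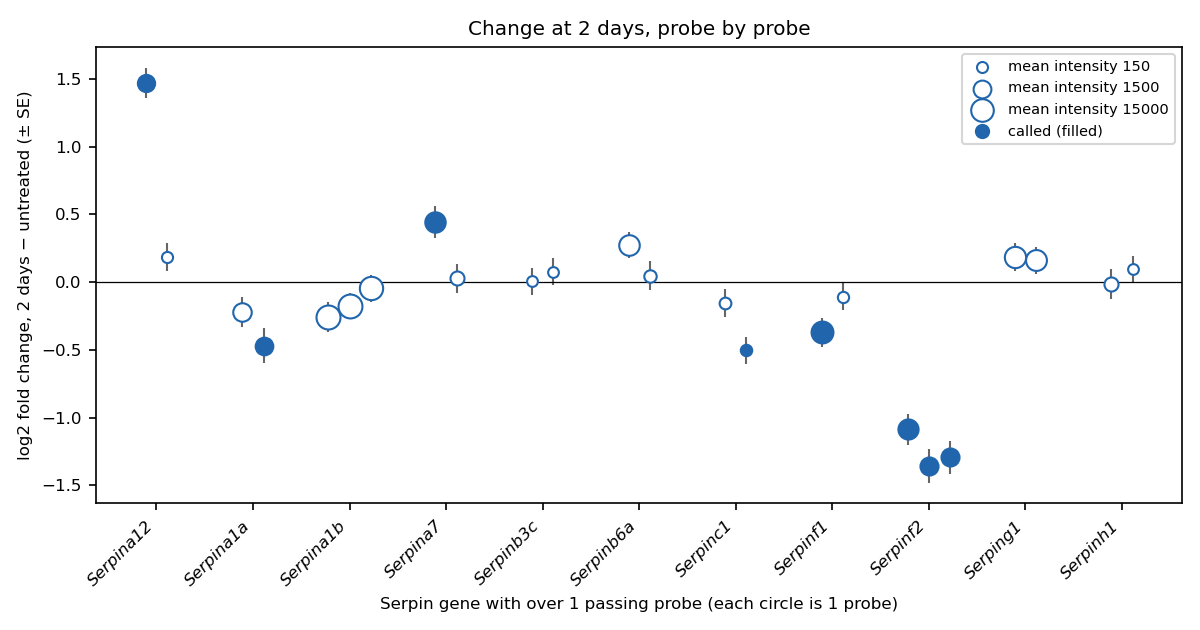
Log2 fold change at 2 days against untreated cells (y axis, ± SE from limma) for every passing probe of the 11 Serpin genes with over 1 passing probe (x axis); circle size grows with the probe's mean intensity, and filled circles were called over 21425 probes. The 3 probes of Serpinf2 are all filled between -1.36 and -1.09, whereas Serpina12, Serpina7, Serpina1a, Serpinc1 and Serpinf1 each have 1 filled and 1 open circle.

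The third comparison, 2 days against 2 hours, tested whether the changes differed between the times. Again 8 of 37 were called (21.6%, against 15.3% of all genes), 4 higher and 4 lower (8.63% and 6.67% of all genes). Of the 19 brighter members 7 were called, against 26.5% of all genes that bright, and of the 18 dimmer ones 1, against 3.01%. An unadjusted p under 0.05 was reached by 14 members, against 25.7% of all genes. Arrays did not overlap for 21 members, 9 higher and 12 lower, against 52.8% of all genes (29.4% higher and 23.4% lower). It shares arrays with the other comparisons and is not independent of them. For 6 genes the 2 day value had been called against untreated cells too: Serpina12 (1.20), Serpina5 (0.76), Serpind1 (0.73), Serpina3n (-1.09), Serpina10 (-1.06) and Serpinf2 (-1.03), with limma adjusted p from 1.18e-08 for Serpina12 to 2.55e-04 for Serpind1. For Serpina3n the 2 hour arrays were the highest of the 3 groups. The calls of Serpinb6a (0.32, adjusted p = 0.0274 by limma) and Serpina1f (-0.37, adjusted p = 0.0161 by limma) were made in this comparison and in neither of the others. Serpinb6a lost its call without 2 hour replicate 1 (0.29), 2 hour replicate 2 (0.36) or 2 day replicate 1 (0.26), after normexp (0.33) or cyclic loess (0.28) and with the mean of its probes (0.14), and its other probe gave -0.043; Serpina1f lost its call without 2 hour replicate 1 (-0.24), 2 day replicate 1 (-0.34) or 2 day replicate 2 (-0.40). Serpind1 was at 1.07 and not called after normexp. Serpina7 (0.24) and Serpinf1 (-0.18) were not called between the times, though Serpina7 was without 2 day replicate 1 (0.42). Serpina1c (-0.30, adjusted p = 0.0556 by limma) was not called, and crossed the threshold in 6 of 15 alternatives.

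The proteases and partners of the serpins were read from a list of 30 genes, 27 of them tested. At 2 hours 1 was higher, the liver protease Hpn (0.40, with 0.22 and 0.32 on its other probes, neither called). Lower was 1, the lectin pathway protease Masp1 (-0.78, with -0.12 and -0.21 on its other probes). Of all genes 1.76% were called higher and 1.06% lower. At 2 days 1 was higher, the lysosomal protease Ctsb (0.32), and 8 were lower, 9 of 27 or 33.3% against 12.7% of all genes and 22.2% of those of 200 units or more, with a median of -0.09 over the list against 0.01 over all genes. The falls with the largest change were coagulation factor F10 (-1.36), the target of Serpina10, factor F12 (-1.12), the membrane protease Tmprss2 (-0.83) and factor F9 (-0.71). Prothrombin F2, whose active form thrombin is the target of Serpinc1 and Serpind1, was at -0.46 and called, and vitronectin, Vtn, at -0.59 and called. Plasminogen, Plg, the precursor of the Serpinf2 target, was at -0.20 (adjusted p = 0.344 by limma) and not called. Between the times 10 of the 27 were lower and 2 higher, with F10 (-1.55), F12 (-1.17), Masp1 (0.74) and Tmprss2 (-0.71) the largest. That is 44.4%, against 15.3% of all genes and 26.5% of those of 200 units or more. The probes of Masp1 disagree: the other 2 gave 0.14 and -1.15 between the times, the second of these called, and 0.02 and -1.37 at 2 days. After normexp the 2 day calls of F2, Vtn, Masp2, Furin, Ctsb and F9 were lost, as were the 2 hour call of Hpn and, between the times, those of Plaur, Vtn, Proc, Masp2, Ctsb and Furin.

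Of 25 protease inhibitors that are not serpins 21 were tested. None was called at 2 hours (0 of 21 by limma). At 2 days 4 were higher and 6 lower, or 47.6% against 12.7% of all genes and 22.2% of the brighter ones. The named ones are Wfdc2 (1.53) and Timp1 (0.87), an inhibitor of metalloproteases, among those that rose, and the plasma protein Itih3 (-0.83) and Itih4 (-0.75) among those that fell. The secreted elastase inhibitor Slpi, which shares a target with Serpina1 proteins, rose by 0.68. Between the times 4 rose and 4 fell (38.1%, against 15.3% of all genes and 26.5% of the brighter ones). The largest changes were Wfdc2 (1.35), Itih4 (-0.74), Itih3 (-0.67) and Slpi (0.58). After normexp the 2 day calls of Slpi, Cstb, Itih2, Kng1 and Ahsg were lost, and between the times 2 higher and 1 lower remained, with Itih3, Slpi, Cstb, Spink1 and Ahsg lost. Of the 16 collagen and collagen processing genes, the field of Serpinh1, 13 were tested: 2 were higher at 2 hours, Col4a1 (0.95) and Plod2 (0.48; -0.09 and 0.52 on its other probes), which is 15.4% against 2.82% of all genes. At 2 days Col4a2 (0.63) and Col4a1 (0.46) were higher and Col18a1 (-0.61) and P4ha2 (-0.55) lower. That is 30.8%, against 12.7% of all genes and 22.2% of the brighter ones. The other probe of Col18a1 gave -0.26 and was not called, while that of P4ha2 gave -0.66 and was called. Between the times 5 were lower and 1 higher (46.2%, against 15.3% of all genes and 26.5% of the brighter ones). The largest changes were Col18a1 (-0.77), Plod2 (-0.67), Col4a2 (0.59) and P4ha2 (-0.55). After normexp the calls of Plod2 at 2 hours and of Col4a1 and P4ha2 at 2 days were lost, and between the times those of Col4a1, P4ha2 and Lox. The 2 day medians of the inhibitor list and the collagen list were 0.11 and 0.01.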

How the data were processed

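The deposited table holds 1 linear intensity per probe and array for 45281 probes; the scanner, the software and any normalization are not given in the sources used here. Per the labels' protocols, biotinylated cRNA was hybridised to Illumina arrays. The deposited intensity columns share 1 distribution (lowest value 96.5, highest 47615.3, medians 143.16 to 143.22) and hold their background. Probes were named from the platform annotation (34885 with 1 symbol, 18 with several, 10378 unlisted), with symbols updated through RefSeq (GRCm38.p6); no Serpin symbol changed. The log2 of each value was used with no added scaling. A probe passed above the 50th percentile on at least 2 arrays, and each gene kept its passing probe with the highest mean. limma 3.58.1 in R 4.3.3 fitted a mean per group to all 6 arrays over 13438 genes (residual degrees of freedom 3, prior 21.22, so each gene's spread is mostly shared over all genes), with Benjamini-Hochberg adjustment at 0.05. Intervals are 95% intervals of that fit. The small number of arrays limits the precision. The fit was tested on simulated data. That simulation drew independent noise for each array and added changes to the 2 hour group only. It therefore does not bear on the unknown type of the replicates or on the time in culture.

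Members, lists and tests were chosen with earlier results of these data known. Named were all members called in any comparison, the 6 brightest uncalled ones, and up to 4 called genes a list with the largest change; other genes named were chosen after their values were seen. Alternatives tried were leaving out each array, a replicate block, only the 2 compared groups, trended variance, each probe alone, averaged probes, filters at the 70th percentile or none, cyclic loess, median centring, and normexp with an offset of 16 followed by quantile normalization.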

Additional observations from a re-analysis of the deposited data

Results flagged for a closer look

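For 8 serpins the change against untreated cells differed between the 2 times by the limma test of 2 days against 2 hours. The differences, as 2 days minus 2 hours on the log2 scale, were 1.20 for Serpina12, 0.76 for Serpina5, 0.73 for Serpind1, 0.32 for Serpinb6a, -0.37 for Serpina1f, -1.03 for Serpinf2, -1.06 for Serpina10 and -1.09 for Serpina3n.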

How the results depend on the processing

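The 2 day changes of Serpina12, Serpina10, Serpinf2, Serpina3n and Serpina5 were called in all 15 alternatives run on the gene values, against untreated cells and between the times, and the second probe of Serpina12 was the only other passing probe of these genes that was not called. After normexp 2 serpins, not 4, were called higher at 2 days, and also 2, not 4, between the times. Leaving out 1 array gave 3 to 4 higher and 3 to 4 lower at 2 days, 3 to 5 higher and 3 to 5 lower between the times, and 0 at 2 hours. Of the 16 called gene values, 248 alternative values were computed, of which 24 lost the call and 1 reversed: Serpinb6a between the times, -0.043 on its other probe. The replicate block left the counts at 4 higher and 4 lower at 2 days, with 0 at 2 hours. Deviations of same-numbered arrays correlated at -0.148, -0.0753 and 0.0364 between groups. These weak values show no pairing of the arrays by number but cannot exclude one. The median log2 difference of all genes lay between -0.0211 and 0.0287 in every setting run. Dim probes, such as those of Serpina5, Serpind1, Serpinc1 and Serpina1f, limit what can be read, and no detection calls were used.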
